A study of Mus musculus with 8 samples.

Results

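Interferon-γ, its transcription factors and the cytotoxic granule genes form a set of 9 genes, Ifng, Tbx21, Eomes, Gzma, Gzmb, Gzmc, Prf1, Nkg7 and Crtam, among the 23183 genes counted in cultured group 2 innate lymphoid cells (ILC2s) of the mouse lung. The 9 genes were found by symbol in each of the 8 count tables, and they had been selected on their difference in level between Yoda1 and DMSO libraries. Differences between these groups are therefore given for the 9 genes as a description, with no test. ILC2s of C57BL/6 genotype received either 5 µM Yoda1, a chemical agonist of the mechanosensitive channel Piezo1, or the vehicle DMSO at 0.1%, with 4 libraries per group. Exposure lasted 3 h. In both groups the cells were taken from lungs of mice given IL-33 and grown with IL-2, IL-7 and IL-33, per the methods. Cells were enriched with a kit for innate lymphoid cells and CD45 beads, so cells of other types could remain. The labels name neither sex nor age for the 8 samples. Across the study, per its methods, the mice were wild-type C57BL/6 J of both sexes, 6 to 10 weeks of age. No source tells if the 4 samples per group were separate mice or cultures, so spread and p-values describe these samples only.

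ILC2s are known for IL-5 and IL-13 and depend on the transcription factor GATA3, whereas IFN-γ is the main product of the type 1 lymphocytes, that is NK cells, ILC1s, Th1 cells and CD8 T cells. In those cells T-bet (Tbx21) and eomesodermin (Eomes) drive Ifng and the genes of cytotoxic granules. A granule releases perforin, which opens the membrane of a target cell, and granzymes, serine proteases that enter through the pore and start cell death.

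All 9 genes were annotated as protein-coding in GENCODE M21 on mouse build GRCm38. Ifng, the cytokine gene, lies at chr10:118441046-118445892 on the plus strand with 4 exons. The T-box factor genes Tbx21 (chr11:97098071-97115331, minus, 6 exons) and Eomes (chr9:118478212-118486132, plus, 6 exons) lie on separate chromosomes. Gzmb (chr14:56258838-56262260, minus, 5 exons) and Gzmc (chr14:56231441-56234656, minus, 5 exons) are neighbours in the granzyme cluster of chromosome 14, and the start of Gzmc is 27.6 kb from that of Gzmb. Gzma is apart from them at chr13:113093825-113100981 (minus, 5 exons). Prf1 (chr10:61297833-61304680, plus, 3 exons), Nkg7 (chr7:43437073-43438249, plus, 4 exons) and Crtam (chr9:40969691-41004628, minus, 10 exons) complete the set. Ifng overlaps the same-strand gene model Gm49751, and Eomes overlaps the antisense model Gm33460. Strand cannot tell reads of Gm49751 apart from those of Ifng. The strand setting of the counting is not given in the sources used here, so reads of Gm33460 cannot be told apart from those of Eomes either.

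The sequence just before the start of each gene was available for 8 of the 9 genes from RefSeq (build GRCm38.p6), with 250 bases before and 50 after the start, and positions below are counted back from that start. The upstream sequence of Ifng is shown because Ifng was the most changed secreted product of the set. It holds the NFAT core GGAAA at -172 and the TATA letters TATAAA at -30, both in capitals, in the plus-strand interval chr10:118440796-118441045. The upstream sequence of Gzmb is shown as that of the most abundant granzyme. It holds an AP-1 match, TGANTCA, at -58, between RUNX cores, TGTGGT, at -93 and -34, in the minus-strand interval chr14:56262335-56262454. For Gzmb the RefSeq start lies upstream of the GENCODE start given above, and distances between granzyme genes use the GENCODE starts.

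Ifng: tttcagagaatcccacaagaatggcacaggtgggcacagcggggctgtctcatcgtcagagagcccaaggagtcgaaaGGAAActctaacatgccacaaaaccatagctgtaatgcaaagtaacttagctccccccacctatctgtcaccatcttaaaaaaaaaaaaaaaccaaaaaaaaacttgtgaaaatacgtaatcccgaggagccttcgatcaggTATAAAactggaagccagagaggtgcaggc
Gzmb: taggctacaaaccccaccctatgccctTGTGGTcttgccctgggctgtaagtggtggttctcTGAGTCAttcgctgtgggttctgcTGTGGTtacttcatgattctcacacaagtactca

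Gzmc shares a stretch of 80 bases upstream of its start with 4 other granzymes of the chromosome 14 cluster. It is shown because the stretches are nearly identical while the genes had unlike levels. The capitals mark the octamer at the place of the cAMP response element (CRE) letters TGACGTCA of Gzmc. Gzmf and Gzmg carried the same 8 letters, whereas Gzmd differed by C4T and Gzme by G5A, counted from 1 at the 5′ end of the octamer. Identity to the Gzmc stretch was 93.8% for Gzmd, 93.8% for Gzme, 91.2% for Gzmf and 95.0% for Gzmg. The intervals, all on the minus strand, were chr14:56234672-56234751 for Gzmc, chr14:56132612-56132691 for Gzmd, chr14:56120645-56120724 for Gzme, chr14:56211447-56211526 for Gzmf and chr14:56159614-56159693 for Gzmg.

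Gzmc: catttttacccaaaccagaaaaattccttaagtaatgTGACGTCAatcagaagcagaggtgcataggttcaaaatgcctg
Gzmd: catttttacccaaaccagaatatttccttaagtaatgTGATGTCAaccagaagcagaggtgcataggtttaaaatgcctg
Gzme: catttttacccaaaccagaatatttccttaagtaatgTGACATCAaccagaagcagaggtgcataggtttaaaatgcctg
Gzmf: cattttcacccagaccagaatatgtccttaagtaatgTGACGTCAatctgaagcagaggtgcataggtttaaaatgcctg
Gzmg: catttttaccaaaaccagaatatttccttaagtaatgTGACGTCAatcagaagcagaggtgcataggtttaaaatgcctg

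Both strands were searched for each motif, and the matches are a description only. Among 32851 mouse promoters of the same length, 61.3% held GGAAA, compared with 5 of the 8 genes (Ifng, Tbx21, Eomes, Gzma and Nkg7). Promoters of a chromosome that holds none of the 8 genes were left out of the 32851. TGTGGT was present in 16.8% of promoters and in 5 of the 8 (Gzma, Gzmb, Gzmc, Prf1 and Nkg7). TGACGTCA was present in 1.79% of promoters and in Gzmc alone of the 8. The AP-1 letters, present in 7.81% of promoters, matched in Gzmb, and the T-box core GGTGTGA, present in 3.98%, matched in Nkg7 at -13. TATAAA, in 13.6% of promoters, matched in Ifng. Neither the NBRE letters AAAGGTCA nor the EGR letters GCGTGGGCG were found in the windows of the 8 genes.

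Library totals ran from 12438009 to 19534653 counts and were mixed between the groups (p = 0.971, exact permutation test, two-sided). Of the genes counted, 12239 passed the filter on low counts, all 9 genes of the set among them. Levels are given as CPM, which put every library on one total, after TMM scaling. ILC2 markers were abundant, with Il13 at 5431 ± 187.2 CPM, Il5 at 3337 ± 80.58 CPM and Gata3 at 564.9 ± 25.74 CPM in DMSO libraries (SD, n = 4). The receptor gene Ptgdr2, also used as an ILC2 marker, had 0 to 2 counts per library. Within the groups, DMSO replicate 4 and Yoda1 replicate 3 held the highest levels of the described genes, as set out further on. Fold changes without both libraries are given there.

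Ifng was the cytokine of the set and was higher in Yoda1-treated ILC2s. Its normalized level was 95.45, 101.9, 104.9 and 120.0 CPM in DMSO replicates 1 to 4 and 260.1, 256.9, 283.4 and 272.1 CPM in Yoda1 replicates 1 to 4. Each Yoda1 library lay above each DMSO library, and the lowest of them exceeded the highest DMSO library by more than the whole range of either group. The means were 105.6 ± 10.41 and 268.1 ± 12.11 CPM (SD, n = 4), which is 2.54-fold or 1.35 ± 0.06 on the log2 scale (SE). Between 1525 and 5290 counts per library stood behind these values. In bulk RNA, a change in the number of cells that carry a transcript and a change in transcript per cell cannot be told apart, and this holds for each gene described.

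The transcription factors of the type 1 programme were less abundant than Ifng. Tbx21, which encodes T-bet, measured 17.59, 21.85, 20.65 and 23.50 CPM in the DMSO libraries and 31.65, 30.99, 34.57 and 31.32 CPM in the Yoda1 libraries. The groups did not overlap, and the DMSO libraries were more spread than the Yoda1 libraries, with DMSO replicate 1 lowest. The mean went from 20.9 ± 2.497 to 32.13 ± 1.645 CPM, a difference of 0.62 ± 0.07 on the log2 scale or 1.54-fold. Eomes, which encodes the related factor eomesodermin, measured 36.74, 38.17, 36.00 and 40.13 CPM with DMSO and 43.11, 41.70, 47.39 and 42.84 CPM with Yoda1. Its groups came close to touching, since DMSO replicate 4 was only just below Yoda1 replicate 2. The fold was 1.16, and the log2 difference was 0.21 ± 0.06.

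Granzyme genes had the highest levels of the set per length of exon, and their differences between the groups were small. Gzmb, the granzyme that cleaves after aspartate and activates caspases, measured 938.9, 864.0, 913.3 and 1039 CPM in the DMSO libraries and 1094, 1047, 1142 and 1081 CPM in the Yoda1 libraries. DMSO replicate 4 reached almost to Yoda1 replicate 2, and no library crossed over. The means were 938.8 ± 73.73 and 1091 ± 39.27 CPM, which is 1.16-fold. Gzmc, a granzyme of the same cluster, measured 495.4, 479.7, 484.4 and 542.5 CPM with DMSO and 562.4, 520.3, 600.8 and 578.4 CPM with Yoda1. Here the groups overlapped, with Yoda1 replicate 2 below DMSO replicate 4, and the log2 difference was 0.18 ± 0.04. Gzma, the tryptase-like granzyme, measured 342.8, 339.3, 324.1 and 369.0 CPM with DMSO and 370.1, 337.3, 376.8 and 360.2 CPM with Yoda1. Its libraries were mixed, and the log2 difference of 0.07 ± 0.04, or 1.05-fold, was the smallest of the 9.

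Perforin (Prf1) measured 367.0, 367.3, 389.1 and 415.1 CPM in the DMSO libraries and 416.9, 415.6, 434.7 and 425.7 CPM in the Yoda1 libraries. The highest DMSO library and the lowest Yoda1 library were nearly equal, so that the groups were separated by a narrow gap. The means were 384.6 ± 22.8 and 423.2 ± 8.846 CPM, 1.10-fold or 0.14 ± 0.04 on the log2 scale. Nkg7 encodes a granule membrane protein that promotes degranulation. It measured 60.65, 62.60, 64.39 and 69.92 CPM with DMSO and 81.78, 80.18, 85.55 and 85.33 CPM with Yoda1, with a clear gap between the groups. The difference was 1.29-fold, or 0.37 ± 0.05 on the log2 scale.

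Crtam, a surface receptor of the nectin-like family found on activated NK and CD8 T cells, showed the largest log2 difference of the 9 genes. It measured 23.35, 22.56, 23.98 and 26.61 CPM in the DMSO libraries and 64.82, 66.17, 72.58 and 62.34 CPM in the Yoda1 libraries. All Yoda1 libraries were far above all DMSO libraries. The means were 24.12 ± 1.754 and 66.48 ± 4.366 CPM, which is 2.76-fold or 1.46 ± 0.06 on the log2 scale, from 360 to 1212 counts per library. The gene of its ligand, Cadm1, was near absent, with at most 3 counts in any library.

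In all, 7 of the 9 genes had all Yoda1 libraries above all DMSO libraries, 2 (Gzma and Gzmc) overlapped and 0 lay lower. Among all genes tested, 8.44% lay wholly higher and 7.05% wholly lower, and since the 9 genes were picked for this difference nothing is read from their count. The log2 differences ran from 0.07 to 1.46 with a median of 0.22, compared with a median of -0.005 over all genes tested. They fell into 3 bands by size, with Ifng and Crtam above 1, Tbx21 and Nkg7 between 0.3 and 0.7, and the other 5 at or below 0.22.

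**Figure D1:**
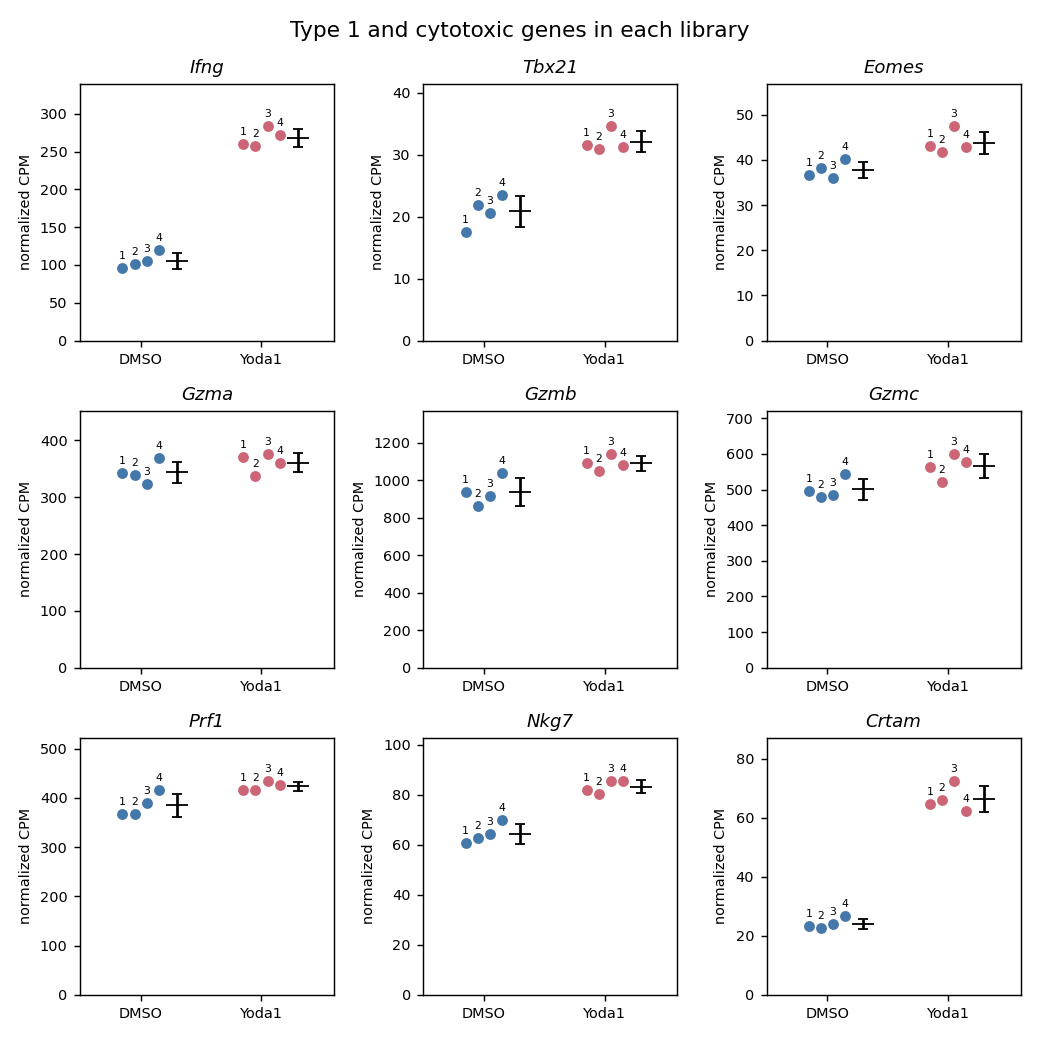
Normalized CPM (vertical axes, from 0) of each of the 9 genes in the 4 DMSO and 4 Yoda1 libraries, with the replicate number beside each point and the mean and SD as a bar. Ifng (105.6 against 268.1 CPM) and Crtam (24.12 against 66.48 CPM) separate widely, while Gzma libraries are mixed, and replicate 4 of DMSO and replicate 3 of Yoda1 are at the top of their groups throughout.

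Levels of different genes were compared per kilobase of exon, since longer transcripts give more reads. In DMSO libraries the order of the mean level was Gzmb (653.8 CPM per kb), Gzmc (559.8), Gzma (341.7), Prf1 (148.8), Ifng (81.53), Nkg7 (70.45), Eomes (9.088), Tbx21 (8.4) and Crtam (4.702). The ranges of 4 libraries overlapped for Gzmb and Gzmc, for Ifng and Nkg7 and for Eomes and Tbx21, so those neighbours were not separated, and the other neighbours were. In Yoda1 libraries Ifng stood at 207.1 CPM per kb, above Prf1 at 163.8 CPM per kb. Crtam moved from the lowest place, with 12.96 CPM per kb, and its range overlapped that of Tbx21 at 12.91 CPM per kb, both above Eomes at 10.53 CPM per kb. Each of the other neighbours was separated. On the same scale Il13 stood at 4507 CPM per kb in DMSO and 5533 CPM per kb in Yoda1 libraries, and Gata3 at 142 CPM per kb in both. Together, the 9 genes took 0.230% to 0.266% of all counts in DMSO libraries and 0.276% to 0.304% in Yoda1 libraries, and Il13 alone took 0.528% to 0.563% and 0.652% to 0.675%.

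**Figure D2:**
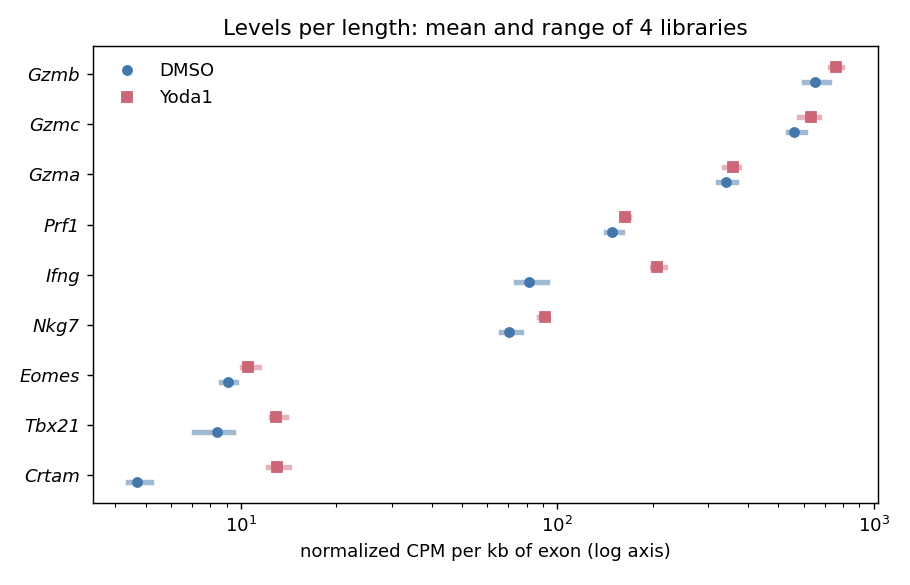
Mean level (points) and range of 4 libraries (bars) for the 9 genes, in normalized CPM per kilobase of exon on a log axis, for DMSO and Yoda1 libraries. Gzmb, Gzmc and Gzma lead in both groups, and Ifng (81.53 to 207.1 CPM per kb) and Crtam (4.702 to 12.96 CPM per kb) change place in the order.

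The 9 genes also varied together within each group, a measure that the choice of the genes did not use. DMSO replicate 4 held the highest DMSO level for 9 of the 9 genes, and Yoda1 replicate 3 held the highest Yoda1 level for 9 of the 9. Among all genes tested, DMSO replicate 4 was highest for 24.1%, Yoda1 replicate 3 was highest for 28.8% and both held for 5.32%. Yoda1 replicate 2 was lowest of its group for 8 of the 9 genes, compared with 25.3% of all genes, and the exception was Crtam. Related genes showed part of this order, so it was not particular to the 9. In the granule list described below, both maxima held for 21.7% of 23 tested genes, and Yoda1 replicate 2 was lowest for 65.2%. Among NK and ILC1 markers, 60.0% were highest in DMSO replicate 4 and 26.7% in Yoda1 replicate 3. Among type 1 regulators, both maxima held for 4.76%. As log2 CPM relative to the mean of the same group, DMSO replicate 4 was higher by 0.19 for Ifng, 0.18 for Tbx21, 0.15 for Gzmb and 0.14 for Crtam. Yoda1 replicate 3 was higher by 0.13 for Crtam, 0.12 for Eomes and 0.08 for Ifng. These offsets were small beside the group differences of Ifng and Crtam and of the same size as those of Gzmb, Gzmc and Prf1.

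**Figure D3:**
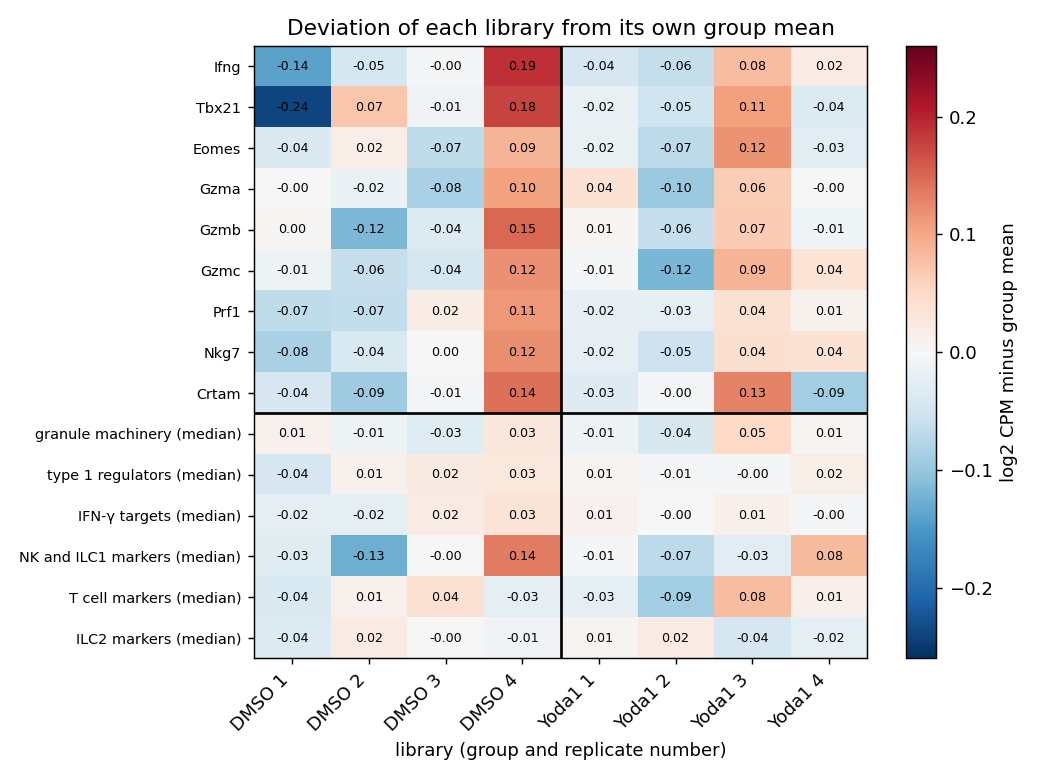
Deviation of each library (columns) from the mean of its own group, in log2 CPM, for the 9 genes and, below the line, for the median gene of 6 lists, with red above and blue below the mean. DMSO replicate 4 and Yoda1 replicate 3 are red for all 9 genes, and the NK and ILC1 marker list is highest in DMSO replicate 4 (0.14) and in Yoda1 replicate 4 (0.08).

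Without DMSO replicate 4 and Yoda1 replicate 3, a choice made after these values were seen, the log2 difference was 1.39 for Ifng, 1.47 for Crtam, 0.65 for Tbx21, 0.40 for Nkg7 and 0.21 for Eomes. For the granule genes it was 0.25 for Gzmb, 0.19 for Gzmc, 0.17 for Prf1 and 0.09 for Gzma. All 9 kept the direction seen with 8 libraries. For the 7 genes whose groups did not overlap, leaving out libraries could not turn the direction, so nothing is read from this.

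Markers of the cell types that normally express these genes were measured in the same libraries, with marker lists chosen when earlier results of these data were known. The 17 NK and ILC1 markers summed to 219.4, 201.0, 219.1 and 241.4 CPM in the DMSO libraries and to 230.3, 222.1, 232.8 and 243.1 CPM in the Yoda1 libraries. The sum was highest in DMSO replicate 4 among DMSO libraries, as for the 9 genes, whereas in the Yoda1 group it was highest in replicate 4. The groups overlapped, with means of 220.2 and 232.1 CPM (1.05-fold; p = 0.229, exact permutation test, two-sided). The defining NK receptors Ncr1 (4.419 and 3.703 CPM) and Klrb1c (6.068 and 5.282 CPM in DMSO and Yoda1) were low but present, and the most abundant markers were Klrk1, Cd244 and Klrd1 at 49.13, 31.3 and 25.06 CPM in DMSO libraries. Of 15 tested markers, 3 rose (Klrc1, Klra9 and Klri2) and 0 fell by edgeR's quasi-likelihood test at a Benjamini-Hochberg adjusted p of 0.05. Of all genes tested, 6.04% were called higher and 4.84% lower. DESeq2 called 2 of the 15 higher. Klrc1 passed under each alternative tried, whereas Klri2 and Klra9 did not, and Klri2 missed by DESeq2 (adjusted p = 0.0673) and without DMSO replicate 2 (0.129), DMSO replicate 3, Yoda1 replicate 1 or Yoda1 replicate 4 (0.154). Klra9 missed without DMSO replicate 2 (0.0662) or Yoda1 replicate 4 (0.0504). At an unadjusted p under 0.05 in edgeR 1 was lower, and DESeq2 and limma-voom called 0 lower.

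The 11 T cell markers summed to between 103.8 and 111.6 CPM in DMSO and between 109.7 and 118.1 CPM in Yoda1 libraries (1.09-fold between means; p = 0.0571, exact permutation test, two-sided). Their most abundant gene was Cd3g, a CD3 chain, at 46.85 CPM in DMSO libraries, whereas Cd3e was at 6.503, Cd8a at 6.18, Cd4 at 4.048 and Cd8b1 at 0.687 CPM. None of the 11 was called by edgeR, with 1 at an unadjusted p under 0.05 and 0 called by DESeq2 or limma-voom. Cd3g was higher by 0.15 on the log2 scale (edgeR adjusted p = 0.0616). It passed in 2 of the 17 alternatives, with an adjusted p down to 0.0302 in edgeR. The 16 ILC2 markers summed to 17520 ± 260 CPM in DMSO and 19710 ± 187 CPM in Yoda1 libraries (n = 4; exact permutation p = 0.0286, two-sided, which is the minimum for 4 against 4). The largest single part of this difference lay in the cytokine gene Il13, which rose from 5431 to 6667 CPM (edgeR adjusted p = 3.61e-07). Gata3 was at 564.9 CPM in both groups, and Icos, a costimulatory receptor gene, fell by 0.18 on the log2 scale (edgeR adjusted p = 0.000601). In the ILC2 marker list, 6 of 15 tested genes rose and 1 fell, beside 6.04% called higher and 4.84% called lower over all genes tested. ILC3, B cell, myeloid and mast cell or basophil lists each summed to under 9 CPM on average in either group. The summed level of the 9 genes ran from 2297 to 2646 CPM in DMSO and from 2796 to 3078 CPM in Yoda1 libraries, 1.21-fold between means. The part of NK, ILC1 or T cells in the level of the 9 genes was not tested.

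The other granzymes of the chromosome 14 cluster lie on the same strand as Gzmb, with starts 50.8 kb (Gzmf), 87.7 kb (Gzmn), 102.7 kb (Gzmg), 129.7 kb (Gzmd) and 141.6 kb (Gzme) from that of Gzmb. Levels per kilobase in DMSO libraries were 197.6 CPM for Gzmd, 118.3 for Gzmg, 109.5 for Gzme, 8.419 for Gzmf and 0.23 for Gzmn, all below Gzmb and Gzmc. The genes whose upstream stretches are nearly identical thus differed widely in level. Gzmd rose from 190.5 ± 4.505 to 223.1 ± 12.28 CPM (n = 4; 1.17-fold, adjusted p = 0.000162 by edgeR's quasi-likelihood test). Gzme (1.15-fold, adjusted p = 0.00195) and Gzmg (1.15-fold, adjusted p = 0.00809) rose to a similar degree, and Gzmf, at 7.737 and 9.18 CPM, did not pass (adjusted p = 0.156). Exons of these genes share sequence. Of the 50-base words in the exons, 21.9% for Gzmd, 20.6% for Gzme and 19.8% for Gzmg occurred in another granzyme, compared with 4.14% for Gzmc and 0 for Gzma and Gzmb. Counts of Gzmd, Gzme and Gzmg may therefore be split between them by the counting.

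**Figure D4:**
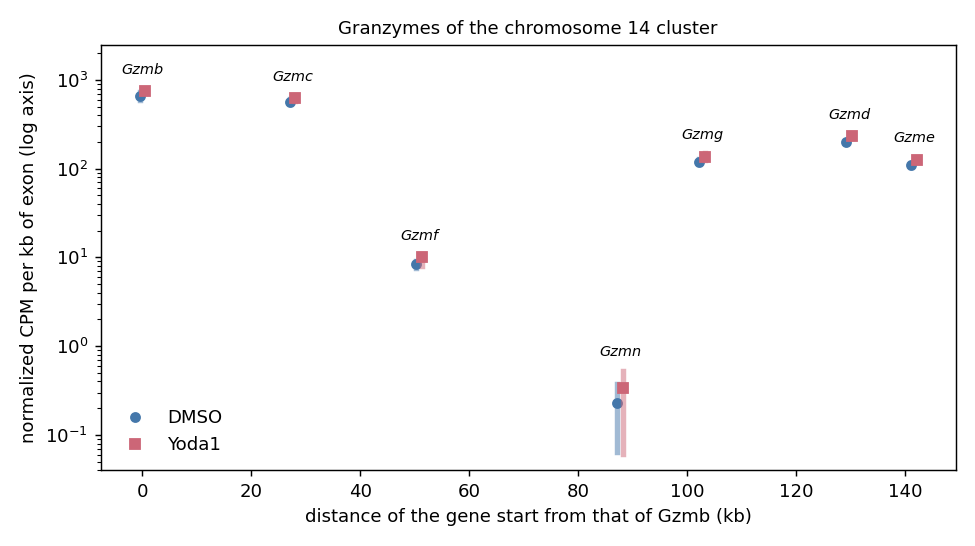
Normalized CPM per kilobase of exon (log axis; mean as point, range of 4 libraries as bar) of the 7 granzymes of the chromosome 14 cluster, against the distance in kb of each gene start from that of Gzmb. Levels range from 653.8 CPM per kb (Gzmb, DMSO) to 0.23 (Gzmn, DMSO) and do not fall steadily with distance. Yoda1 means lie slightly above DMSO means at each gene, with overlapping ranges for Gzmc, Gzmf, Gzmg and Gzmn. Gzmn, with 1 to 7 counts per library, is too shallow to compare.

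Genes of granule loading, release and control were counted over a list of 26, of which 23 passed the filter. This list and the regulator and IFN-γ target lists below were chosen with earlier results of these data known, so their counts are a description. In the list, 8 rose and 0 fell in Yoda1 libraries (edgeR's quasi-likelihood test, adjusted over all genes), against a background of 6.04% of genes called higher and 4.84% called lower. At an unadjusted p under 0.05, 2 were lower, and DESeq2 and limma-voom each called 0 lower. Of the 8 that rose, 3 were the granzymes above, which share sequence. Also higher were Stx11, a syntaxin needed for granule release (1.27-fold, adjusted p = 2.42e-06), and Ctsc, the peptidase that activates granzymes (1.28-fold, 7.85e-06). Serpinb6b, a serpin gene, was higher as well (1.43-fold, 1.53e-05). Fasl, the Fas ligand, was low at 8.794 ± 1.786 and 12.91 ± 1.328 CPM (n = 4; adjusted p = 0.00105), and its groups overlapped. Srgn, the proteoglycan that packs granule contents, rose 1.12-fold (adjusted p = 0.00265). Of the release genes Rab27a and Unc13d neither passed, with log2 differences of 0.03 ± 0.05 and -0.09 ± 0.04. The granzyme B inhibitor Serpinb9 (0.05 ± 0.04), Calr (0.04 ± 0.04) and Serpinb6a (0.03 ± 0.04) did not pass either. The median log2 difference of the 23 was 0.078, compared with -0.005 over all genes.

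Of 21 tested regulators of the type 1 programme other than the 9 genes, 5 rose and 2 fell, beside 6.04% higher and 4.84% lower over all genes tested. Irf8, an interferon regulatory factor, rose from 226.9 ± 9.297 to 309.1 ± 16.33 CPM (n = 4; 1.36-fold, edgeR adjusted p = 2.04e-09). Jak2, a kinase of the IFN-γ and IL-12 receptors, rose 1.16-fold (adjusted p = 5.05e-05), Zeb2, a factor of late NK and T cell maturation, 1.15-fold (0.00326), and Irf1, an interferon regulatory factor like Irf8, 1.11-fold (0.00478). Runx3, a partner of T-bet at type 1 genes, fell by 0.18 on the log2 scale (203.7 ± 5.253 to 180 ± 3.861 CPM, n = 4; edgeR adjusted p = 0.00111). The kinase gene Tyk2 was lower by a log2 difference of -0.11 (adjusted p = 0.037). This call was lost without any 1 library other than DMSO replicate 4 or Yoda1 replicate 3, with adjusted p up to 0.119. The receptor genes Il12rb2 (-0.05 ± 0.08) and Il18r1 (0.11 ± 0.04) and the IL-12 signal transducer Stat4 (0.10 ± 0.04) had log2 differences that did not pass. The list's median was 0.078.

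Of 24 genes known to be induced by IFN-γ, 9 rose, 3 fell and 12 did not pass, with a median log2 difference of 0.07. Over all genes tested, 6.04% were called higher and 4.84% lower. Irf8 and Irf1 are on this list as well. The immunity-related GTPases Irgm1 (1.13-fold, edgeR adjusted p = 0.000444) and Igtp (1.13-fold, 0.000705) rose, as did Cd274, which encodes PD-L1 (1.11-fold, 0.00489). Gbp6, Iigp1 and Gbp2 rose by 1.10-fold or less. Other members of the guanylate-binding protein family fell, namely Gbp8 (by 0.24 on the log2 scale, adjusted p = 8.81e-05), Gbp5 (by 0.11, 0.0371) and Gbp4 (by 0.11, 0.0389). The call of Gbp5 held without DMSO replicate 1 and was lost without any 1 of the other libraries (adjusted p up to 0.112), and that of Gbp4 was lost without DMSO replicate 3 or 4 or Yoda1 replicate 2, 3 or 4 (up to 0.128). Among the increases, Gbp2 missed without Yoda1 replicate 1 (0.0663) or Yoda1 replicate 4 (0.0741), Iigp1 without DMSO replicate 2 (0.0713) or Yoda1 replicate 1 (0.0548), and Gbp6 without DMSO replicate 2 (0.0542). With upper-quartile scaling the split of this list was 6 higher and 5 lower. The differences of these genes were small beside the 2.54-fold difference of Ifng, which had itself been selected on its difference. Whether they are linked to that of Ifng was not tested.

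**Figure D5:**
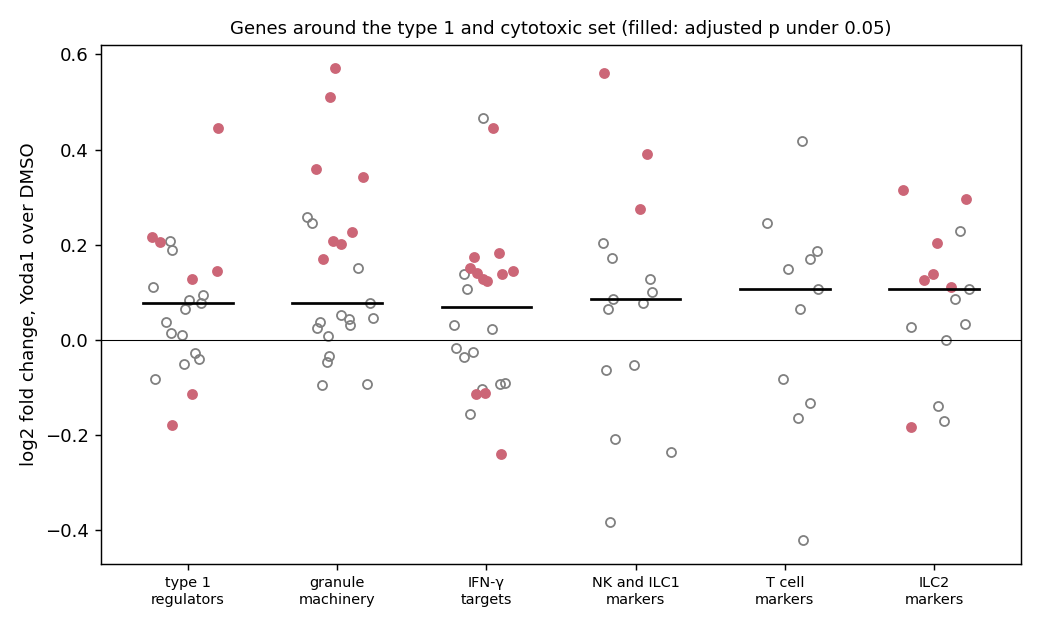
Log2 fold change, Yoda1 over DMSO, of each tested gene in 6 lists, with filled points for an edgeR adjusted p under 0.05 and a line at the list's median. Medians lie between 0.07 and 0.11, and granule machinery holds 8 filled points above 0 and 0 below, while type 1 regulators and IFN-γ targets hold both. All lists were chosen with earlier results of these data known.

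For each of the 9 genes, the 3 tested genes with the most similar profile were taken by the root mean square difference in log2 CPM over the 8 libraries, after centring each on its own DMSO mean. The profile includes the difference between the groups, so that this is a description. For Ifng these were Rgs16 (0.071), Egr3 (0.080) and Slco4a1 (0.097), and for Crtam they were Slco4a1 (0.093), Ifng (0.100) and Rgs16 (0.106). Ifng and Crtam thus shared Rgs16 and Slco4a1, and Crtam had Ifng itself among its nearest. Tbx21 was nearest to Rgs2 (0.058), Havcr2 (0.074) and Spp1 (0.081), and Nkg7 to Ctsc (0.032), Atf3 (0.042) and Csrnp1 (0.051). Eomes and Gzmc both had the granzymes Gzme (0.030 and 0.040) and Gzmg (0.039 and 0.029) among their nearest. For Gzmb the nearest was Nupl1 (0.039), for Prf1 the IFN-γ target Iigp1 (0.023) and for Gzma Xrn2 (0.020).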

How the data were processed

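RNA was measured by poly(A)-selected sequencing (directional kit, per the study's methods) in 8 samples of cultured mouse lung ILC2s, 4 with Yoda1 and 4 with DMSO, grouped by the labels. The deposited tables hold raw counts of reads by gene symbol, 1 table per sample. FastQC, FASTX Trimmer, BBMap and Cufflinks appear in the study's methods, and the submitters' processing notes name TopHat and mm10. Tool versions, annotation and strand setting are not given in the sources used here. Reads were not deduplicated by molecular identifiers as far as stated, and their number limits precision, with 1 count worth 0.0512 to 0.0804 CPM.

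Genes were filtered with filterByExpr (minimum count 10, minimum total 15), scaled by TMM (factors 0.988 to 1.01) and fitted in R 4.3.3 with edgeR 4.0.16 (quasi-likelihood, robust, no covariate, Benjamini-Hochberg threshold 0.05 over 12239 genes). The steps were tested on simulated data first. Between replicates of a group, counts differed by more than sampling noise (chi-square per gene 2.04 to 6.94 over 12 pairs), so none was a copy. Log2 CPM used a prior count of 2. Summed marker levels were compared by a two-sided exact permutation test. Positions and exon lengths came from GENCODE M21 (95.5% of symbols matched, 9 of 9 genes of the set), and promoters from RefSeq. No upstream sequence of Crtam was used here.

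The 9 genes, the gene lists and the motifs were chosen with earlier results of these data known. Named genes were the 9, in each list up to 6 genes past the threshold by adjusted p and the 3 most abundant, the 3 most abundant of each marker list, and the 3 genes nearest in profile. Other list and marker genes, such as Tyk2, Gbp5, Gbp6, Klrc1, Icos, Stat4 and Serpinb9, were named after their values were seen. Listed symbols Zfp683, Ifngas1, Cd244a, Trac, Trbc1 and Trbc2 had no match in the tables. A gene counted in the lists is not reported here by name. Alternatives were DESeq2 1.42.0, limma-voom (limma 3.58.1), other scalings and filters, the replicate number as a block, each library left out, and DMSO replicate 4 with Yoda1 replicate 3 left out.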

Additional observations from a re-analysis of the deposited data

Results flagged for a closer look

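Groups of 4 libraries were examined for the 9 genes, the named list and marker genes and the genes nearest in profile. In 13 of 172 groups, 1 library stood apart from the other 3 by Dixon's ratio, while chance gives about 1 in 20 groups, or 8.6 here. The ratio sets the gap against the range of the group, so a small gap is flagged where the other libraries lie close together, as for Iigp1 below. None of the 9 described genes was among them. In DMSO replicate 4, Fasl (11.46 CPM, nearest 8.16), Klrd1 (28.82 CPM, nearest 24.04) and Gem (92.31 CPM, nearest 81.52) were high, and this is the library in which each of the 9 genes was at its DMSO maximum. Gem was examined because its profile over the libraries was like that of Gzmb, so nothing is read from its high value there. In DMSO replicate 1, Jak2 (734.4 CPM, nearest 763.3) and Gbp2 (1151 CPM, nearest 1235) were low. In Yoda1 replicate 2, Igtp (828.3 CPM, nearest 860.2) and Rgs16 (121.3 CPM, nearest 137.7) were low and Csrnp1 (64.17 CPM, nearest 62.81) was high. In Yoda1 replicate 1, Iigp1 (1037 CPM, nearest 1027), Cd8a (8.315 CPM, nearest 6.823) and Unc13d (124.8 CPM, nearest 120.4) were high. Gbp5 was low in Yoda1 replicate 3 (244.1 CPM, nearest 253.3), and Rab27a was low in DMSO replicate 3 (51.79 CPM, nearest 58.71).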

How the results depend on the processing

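The log2 differences of the 9 genes kept their direction under all 17 alternatives, from 1.30 to 1.41 for Ifng (1.303 to 1.412), 1.42 to 1.51 for Crtam (1.423 to 1.511), 0.546 to 0.675 for Tbx21 and 0.041 to 0.106 for Gzma. For the 7 genes whose groups did not overlap, leaving out libraries could not turn the direction. The cause of the changes below was not tested. Of all genes, 739 were called higher and 592 lower. Upper-quartile factors gave 505 and 958, library size only 553 and 809, and DESeq2 625 and 372. Without DMSO replicate 4 and Yoda1 replicate 3, 371 were lower. Leaving out 1 library gave 367 (without DMSO replicate 2) to 677 lower (374 without Yoda1 replicate 4) and 519 to 807 higher. Type 1 regulators lower (2) fell to 1 in 6 of the 8 fits that leave out 1 library, all but those without DMSO replicate 4 and Yoda1 replicate 3 (range 1 to 2). IFN-γ targets lower (3) were 5 with upper-quartile factors and 1 to 4 with 1 library left out (1 without DMSO replicate 3, DMSO replicate 4, Yoda1 replicate 2 or Yoda1 replicate 4). Granule genes lower (0) were 2 with upper-quartile factors. Same-numbered samples did not deviate together (correlations -0.028 to 0.071, 3 of 8 samples best with their own number). Whether they shared a mouse, culture or batch cannot be told from these correlations. With the replicate number as a block, 548 genes were higher and 418 lower, and type 1 regulators lower and IFN-γ targets lower were 1 each. Of named list genes, Tyk2 (adjusted p = 0.0729), Gbp5 (0.0857), Gbp4 (0.108), Gbp2 (0.0682) and Iigp1 (0.0506) missed the edgeR threshold under the block. Genes under about 10 counts per library, such as Gzmn and Cadm1, are too shallow to compare.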
